A study of Fukomys damarensis and Heterocephalus glaber and Mus musculus with 160 samples.

Results

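The mouse genes Uox (ENSMUSG00000028186.14) and Nebl (ENSMUSG00000053702.16) were examined through the histone marks deposited around them in liver and heart. The windows were fixed by position on the GRCm38 build, chr3:146590000-146640000 (50 kb) for Uox and chr2:17340000-17735000 (395 kb) for Nebl, and every peak that overlapped a window by at least 1 base was taken. Of the 1711588 peaks in the 29 mouse histone lists, 215 met this rule, 116 at Uox and 99 at Nebl. The pair was chosen because both genes were baits, the fixed viewpoints of the chromosome conformation libraries made from mole-rat tissue in the same study. Per the labels, Uox was a bait in naked mole-rat liver and heart, and Nebl a bait in heart of the naked and the Damaraland mole-rat. Those conformation samples were not analysed here.

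The study applied chromatin immunoprecipitation with sequencing (ChIP-seq) to liver and heart of several rodents, in which an antibody recovers DNA attached to one histone modification and enriched places are called as peaks against untreated chromatin (the input). No treatment is named in the labels, and all mice were wild-type C57BL/6J adult males of 2 months. Liver came from 4 animals (85920, 85921, 85923 and 85924), each with a list for all 3 marks. Heart came from 12 other samples, of which 1 was a pool of 3 animals, and 8 of them gave 1 mark, 3 gave 2 marks and the pool gave all 3. This left 6 heart lists for H3K4me3, 6 for H3K27ac and 5 for H3K4me1, beside 4 liver lists for each. Whole organs were used, so fewer cells that carry a mark and less of the mark per cell cannot be told apart.

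Uox encodes urate oxidase, the peroxisomal enzyme that breaks down uric acid at the end of purine degradation. In the mouse it is best known as a hepatocyte enzyme, and humans lack a working copy. Nebl encodes nebulette, an actin-binding protein of the nebulin family that sits at the Z-disc of heart muscle, and the same gene also gives a shorter LIM-domain protein from another promoter. Trimethylation of histone H3 at lysine 4 (H3K4me3) is a mark of active promoters, acetylation at lysine 27 (H3K27ac) of active promoters and enhancers, and monomethylation at lysine 4 (H3K4me1) of enhancers whether active or poised. No gene annotation of the mouse build was used here, so the positions below are given within the windows and are not assigned to a promoter, exon or intron, and no sequence is shown.

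The tissue labels were first checked with known marker genes. All 4 liver lists of H3K4me3 and of H3K27ac had peaks at 5 of 5 hepatocyte genes (Alb, Apoa1, Fgb, Apob and Cps1) and at 0 of 5 cardiomyocyte genes (Myh6, Myl2, Tnnt2, Nppa and Actc1). The heart lists of these marks had peaks at 4 or 5 of the 5 cardiomyocyte genes. H3K4me1 lists separated the markers less, with peaks at 4 or 5 of the hepatocyte genes in liver and 0 to 2 in heart, and at 1 to 3 and 0 to 3 of the cardiomyocyte genes. One library went against its label in part: the H3K4me3 library labelled heart 6837 had peaks at 5 of 5 hepatocyte genes as well as at 5 of 5 cardiomyocyte genes, while the other 5 heart H3K4me3 lists had peaks at 0 or 1 hepatocyte gene. Over the whole genome its Jaccard index (shared bases over all bases of a pair of lists) with the 4 liver H3K27ac lists was 0.371 to 0.380, against 0.162 to 0.228 for the other 5 heart H3K4me3 lists. Its indices with the liver H3K4me3 lists, 0.528 to 0.562, lay within the 0.505 to 0.631 of the other 5. Those with the heart H3K27ac lists, 0.225 to 0.315, lay within 0.154 to 0.358. With the other heart H3K4me3 lists it reached 0.422 to 0.539, while pairs among those 5 lists reached 0.441 to 0.776. Its highest index with an H3K4me3 list was 0.562, with a liver list. Each of the other 5 had its highest with a heart list, at 0.655 to 0.776. The H3K27ac library of animal 6837 had peaks at 0 of 5 hepatocyte genes. The H3K4me3 tests in the windows are therefore given with and without the library labelled heart 6837.

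The lists also differed in size, and a list holds no read numbers, so the depth behind a value is unknown. H3K4me3 lists held 17431 to 19301 peaks in liver and 18135 to 32785 in heart, and H3K27ac lists 56871 to 63479 in liver and 57663 to 109724 in heart. H3K4me1 lists held 86486 to 113889 peaks in liver and 20521 to 129914 in heart, where the pool gave the 20521. The pooled H3K4me1 list had no peak in either window and none at a cardiomyocyte or hepatocyte marker, so the H3K4me1 tests in the windows are given with and without it. Markers of other cell types were present in both tissues: endothelial genes (Pecam1, Cdh5 and Kdr) had peaks at 3 of 3 in all H3K4me3 and H3K27ac lists, leukocyte genes at 1 or 2 of 2, and fibroblast genes (Col1a1 and Pdgfra) at 2 of 2 in heart and at 0 to 2 in liver. Their part in the results was not tested.

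The Uox window was marked in liver. All 4 liver lists of each mark had peaks there, whereas peaks were listed in 1 of 6 heart lists for H3K4me3, 1 of 6 for H3K27ac and 3 of 5 for H3K4me1. The liver marks were concentrated in the first 20 kb of the window, a wide H3K4me3 domain inside a wider H3K27ac domain, with H3K4me1 on either side of the H3K4me3 maximum.

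**Figure D1:**
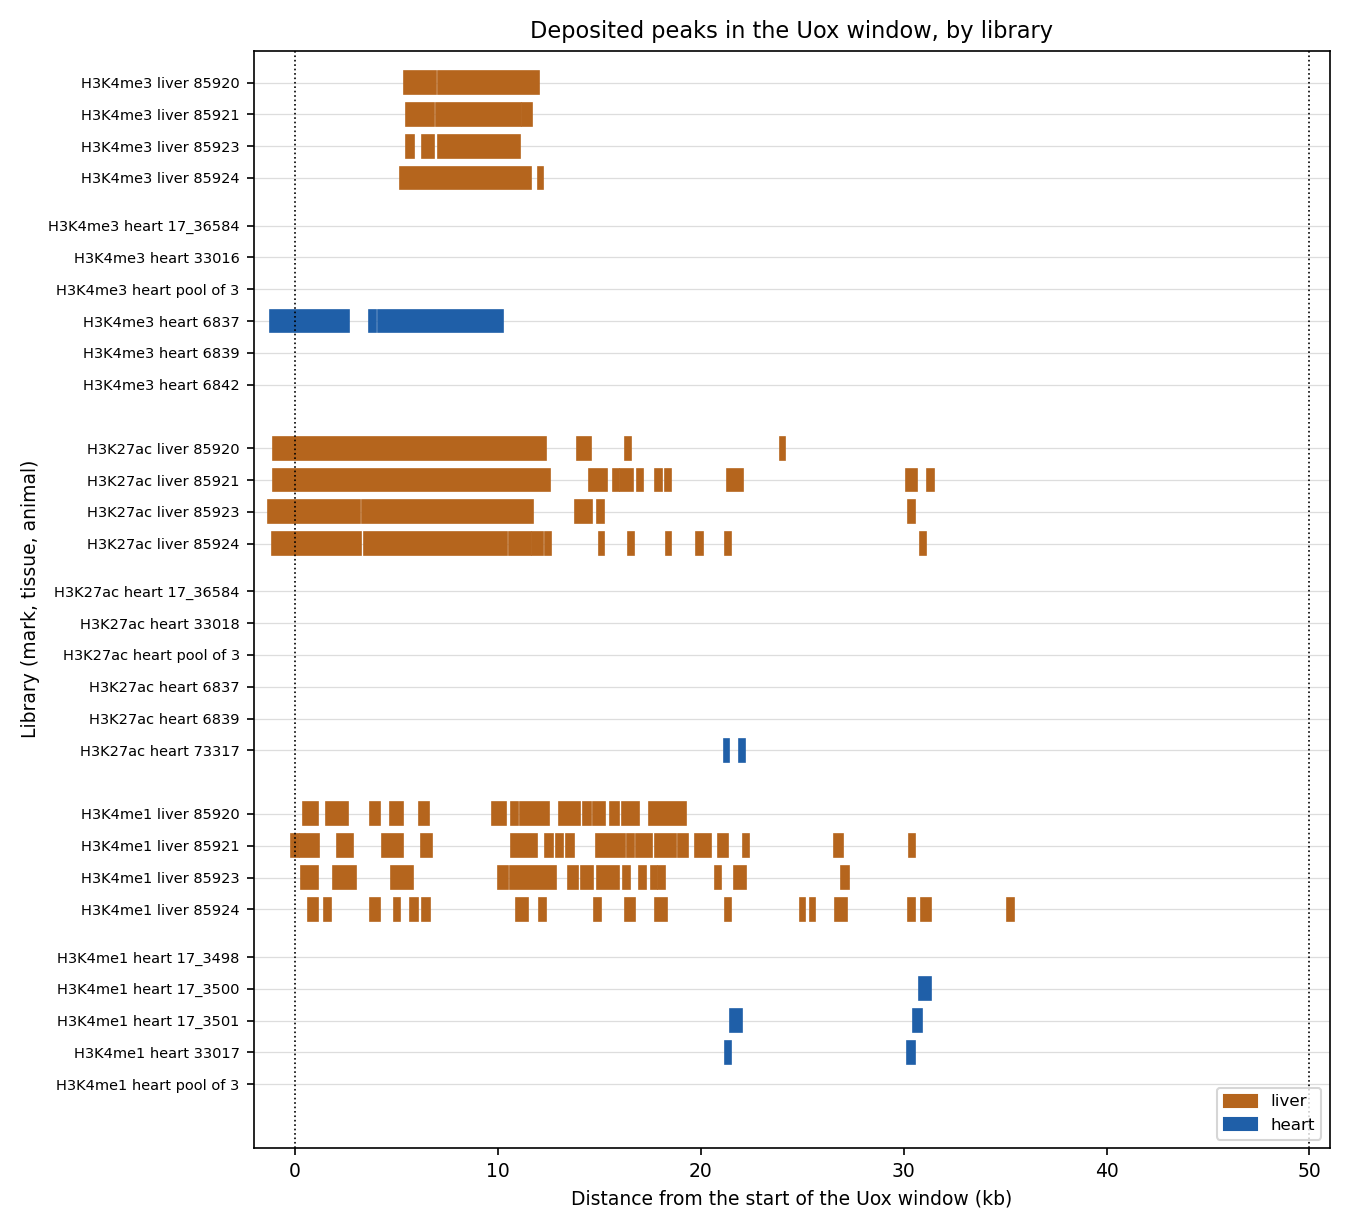
Deposited peaks in the Uox window, 1 row per library (mark, tissue, animal), with distance from the window start in kb on the x axis and dotted lines at the window edges. Bars are peaks drawn to scale, brown for liver and blue for heart. All 4 liver rows of each mark are filled near the left edge, and of the heart H3K4me3 and H3K27ac rows only those of 6837 and 73317 hold a bar.

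The H3K27ac domain at Uox was among the strongest acetylated places in the liver lists. The strongest peak had a fold, which is the enrichment over background that the authors' caller wrote for each peak, of 73.9 in liver 85920, 62.5 in 85921, 50.4 in 85923 and 56.1 in 85924. Within their own lists these ranked 116th, 256th, 990th and 394th by fold, so that 98.3% to 99.8% of each list had a lower fold. In 85920 and 85921 the domain was 1 peak of 13502 and 13683 bases, the 28th and 54th widest of the list. In 85923 and 85924 it was split into peaks of up to 8418 and 7028 bases. The union of these peaks, chr3:146588654-146602615, began 1.3 kb before the window and spanned 13962 bases. The summit of its strongest peak, the point of highest signal given in the lists, lay 6.37 to 6.39 kb from the window start in 3 animals and at 0.91 kb in 85921. In 85923 and 85924 the first peak of the domain, of 4574 and 4380 bases, had a fold of 46.5 and 55.0, close to the strongest.

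Peaks of H3K27ac covered 27.4% of the Uox window in liver 85920, 33.8% in 85921, 26.4% in 85923 and 27.7% in 85924. In heart the cover was 0.994% in 73317 and 0 in the other 5 lists. The lowest liver list thus lay far above the highest heart list, with means of 28.8% ± 3.38 (SD, n = 4) in liver and 0.166% ± 0.406 (SD, n = 6) in heart. The difference of 28.7 percentage points passed the test (two-sided exact permutation test over libraries, p = 0.00476, the smallest that 4 against 6 allows, Benjamini-Hochberg adjusted over all 50 kb tiles of the genome with a peak, adjusted p = 0.0178). Such differences were common: 21.9% of the 25067 tiles passed with liver higher, and 20.1% had liver above heart with no overlap of the groups. The liver mean at Uox exceeded that of 97.2% of the tiles, and the difference exceeded that of 98.8%.

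The number of H3K27ac peaks in the Uox window was 4 in liver 85920, 10 in 85921, 5 in 85923 and 11 in 85924. The 6 heart lists had 0 peaks except 73317 with 2. Counts did not overlap between tissues, at 7.50 ± 3.51 (SD, n = 4) against 0.333 ± 0.816 (SD, n = 6), and passed the same exact permutation test (adjusted p = 0.0266), as did 13% of tiles with liver higher (12.3% had no overlap). This call was lost without any 1 of the 4 liver libraries, with an adjusted p of 0.0599 to 0.0613, where 3 libraries against 6 allow no exact permutation p under 0.0119. With peaks less than 1 kb apart joined, the difference in number was 4.33 in place of 7.17 and still passed. The call on cover held when each library was left out.

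Beyond the wide domain, weaker H3K27ac peaks of liver lay from 13.8 kb onward. A second region, chr3:146603806-146605359, had a peak in 4 of 4 liver lists and in no heart list, with a fold of 3.59 to 5.38 and a width of 266 to 881 bases. It and the wide domain were the 2 of 13 H3K27ac regions (peaks of 1 mark joined over all mouse lists wherever they overlapped) found in every liver list and in no heart list, where 7.09% of such regions over the genome met that rule. The second region is weak: with peaks of a −log10 q of at least 4 only, the number under the rule was 1. The heart 73317 peaks, of 234 and 263 bases and a fold of 4.26 and 4.66, lay at 21.2 and 21.9 kb. They overlapped a region that liver 85921 and 85924 also marked.

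H3K4me3, the promoter mark, covered a narrower part of the Uox window in liver. The widest peak measured 4979 bases in liver 85920, 4184 in 85921, 4006 in 85923 and 6483 in 85924, and in every liver list it was wider than at least 98.3% of the peaks. Its fold was 49.5, 62.1, 32.9 and 111 in the same order. Although wide, it was not extreme in fold, as 52.5% to 87.3% of the peaks in those lists had a lower value. The 4 summits fell within 115 bases of each other, 7.43 to 7.55 kb from the window start.

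Cover by H3K4me3 was 13.1% in liver 85920, 12.1% in 85921, 10.1% in 85923 and 13.5% in 85924. No peak was listed in 5 of the 6 heart lists, and the library labelled heart 6837 had the highest cover of all, 18.3%, in 3 peaks. The groups overlapped through that library, at 12.2% ± 1.55 (SD, n = 4) in liver and 3.04% ± 7.46 (SD, n = 6) in heart. The exact permutation test gave p = 0.0476 and, adjusted over 24572 tiles, 0.426, so the difference of 9.14 points did not pass. Without the library labelled heart 6837 the heart mean was 0 (n = 5), the difference was 12.2 points and the groups no longer overlapped, with an exact permutation p of 0.00794 and an adjusted p of 0.116. Without it, 6.19% of tiles had liver above heart with no overlap in cover. No tile passed for this mark (0% of 24572 with liver higher), while 2749 tiles (11.2%) had an unadjusted exact permutation p under 0.05. The number of peaks was 2, 3, 3 and 2 in the liver lists, 3 in heart 6837 and 0 in the other heart lists. The adjusted exact permutation p was 0.753 with heart 6837 and 0.171 without it. In number 0% of tiles passed, and 1553 (6.32%) had an unadjusted exact permutation p under 0.05. Without the library labelled heart 6837 the numbers did not overlap either, as in 2.41% of tiles. With the window extended by 10 kb on each side the difference in cover was 5.73 points.

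The peaks of the library labelled heart 6837 lay inside the liver H3K27ac domain within the window and covered part of it. They spanned 3863, 336 and 6154 bases from 1.2 kb before the window to 10.3 kb into it, with a fold of 15.8, 4.39 and 16.2. All of their bases in the window (100%) lay inside the H3K27ac peaks of each of the 4 liver lists, and 46.2% to 55.8% inside the liver H3K4me3 peaks. In the other direction, they held 54.0% to 69.2% of the liver H3K27ac bases of the window and 73.2% to 83.9% of the liver H3K4me3 bases. The H3K27ac list of the same heart animal had 0 peaks in the window. Of the 3 H3K4me3 regions at Uox, 0 were found in every liver list and no heart list, and 1 was once the library labelled heart 6837 was left out. Over the genome that rule held for 0.334% of H3K4me3 regions with all lists and for 2.63% without that library.

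Liver H3K4me1 at Uox was made of many narrow peaks. There were 14 in liver 85920, 19 in 85921, 15 in 85923 and 18 in 85924, between 255 and 2263 bases wide. They covered 21.9%, 24.7%, 21.1% and 14.4% of the window in that order. Heart lists had 0, 0, 1, 2 and 2 peaks, covering 0 to 2.10% of the window with a median of 1.19%.

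Liver and heart did not overlap in either H3K4me1 value at Uox. Cover averaged 20.5% ± 4.35 (SD, n = 4) in liver and 0.934% ± 0.918 (SD, n = 5) in heart, and the number of peaks 16.5 ± 2.38 and 1.00 ± 1.00. With 4 lists against 5 the exact permutation p was 0.00794 for both, the smallest possible, and the adjusted p was 0.0740 for cover and 0.0790 for number, the lowest that any tile reached. None of the 30792 tiles passed in cover or in number (0% and 0%). An unadjusted exact permutation p under 0.05 was reached by 8079 tiles (26.2%) in cover and 7537 (24.5%) in number. Liver exceeded heart without overlap in 13.5% of tiles for cover and 11.3% for number, and the difference in cover at Uox exceeded that of 98.6% of them. Without the heart pool the heart mean cover was 1.17% ± 0.872 (SD, n = 4) and the adjusted exact permutation p 0.108. The mean number of heart peaks was then 1.25 ± 0.957 (SD, n = 4), with an adjusted exact permutation p of 0.139, and the shares of tiles without overlap were again 13.5% and 11.3%. With every list reduced to as many peaks as the pool's, the difference in cover was 2.10 points in place of 19.6 and that in number 1.25 in place of 15.5. With peaks less than 1 kb apart joined, the difference in number was 4.75.

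Of the 16 H3K4me1 regions in the Uox window, 5 were found in every liver and no heart list, where 5.7% of regions over the genome met that rule. They lay at chr3:146590266-146591186, chr3:146591446-146593016, chr3:146594273-146596090, chr3:146600606-146604070 and chr3:146604093-146609371. The first held the strongest peak, with a fold of 22.6 in liver 85924, 9.95 in 85921, 8.39 in 85923 and 4.91 in 85920. The 2 regions with heart peaks lay farther out, at chr3:146610715-146612397 (2 of 5 heart and 3 of 4 liver lists) and chr3:146620170-146621366 (3 of 5 heart and 2 of 4 liver lists). Their folds were 4.52 ± 1.27 (SD, n = 2) and 5.29 ± 0.628 (SD, n = 3) in heart, and 4.75 ± 0.132 (SD, n = 3) and 6.49 ± 4.03 (SD, n = 2) in liver. Heart 17_3498 and the pool had no peak at either.

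The marks were arranged alike in the 4 livers. A stretch free of H3K4me1 peaks surrounded the H3K4me3 summit in all 4 livers, 3146 bases long in 85920, 3936 in 85921, 4182 in 85923 and 4237 in 85924. H3K4me3 peaks of the same animal covered 85.9% to 100% of this stretch and H3K27ac peaks 97.6% to 100%. Over the window, 98.3% to 100% of the bases under H3K4me3 were also under H3K27ac, and 23.1% to 37.1% were under H3K4me1. In the other direction, 54.8% to 61.8% of the H3K4me1 bases were under H3K27ac and 12.1% to 22.2% under H3K4me3. A total of 11389 bases were under H3K27ac in all 4 livers, 5018 under H3K4me3 and 2051 under H3K4me1.

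The Nebl window was marked thinly in both tissues. Heart lay above liver without overlap in H3K4me3 cover, the groups overlapped for H3K27ac and H3K4me1, and no comparison at Nebl passed its test. No list of either tissue had more than 1.51% of the window under peaks. Heart peaks recurred in several libraries at a few places: near 119 and 391 kb from the window start for H3K4me3, near 119, 184 and 284 kb for H3K27ac, and near 115, 184, 284 and 391 kb for H3K4me1. Liver had an H3K27ac peak of its own near 17 kb and shared the H3K4me1 place near 391 kb with heart.

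**Figure D2:**
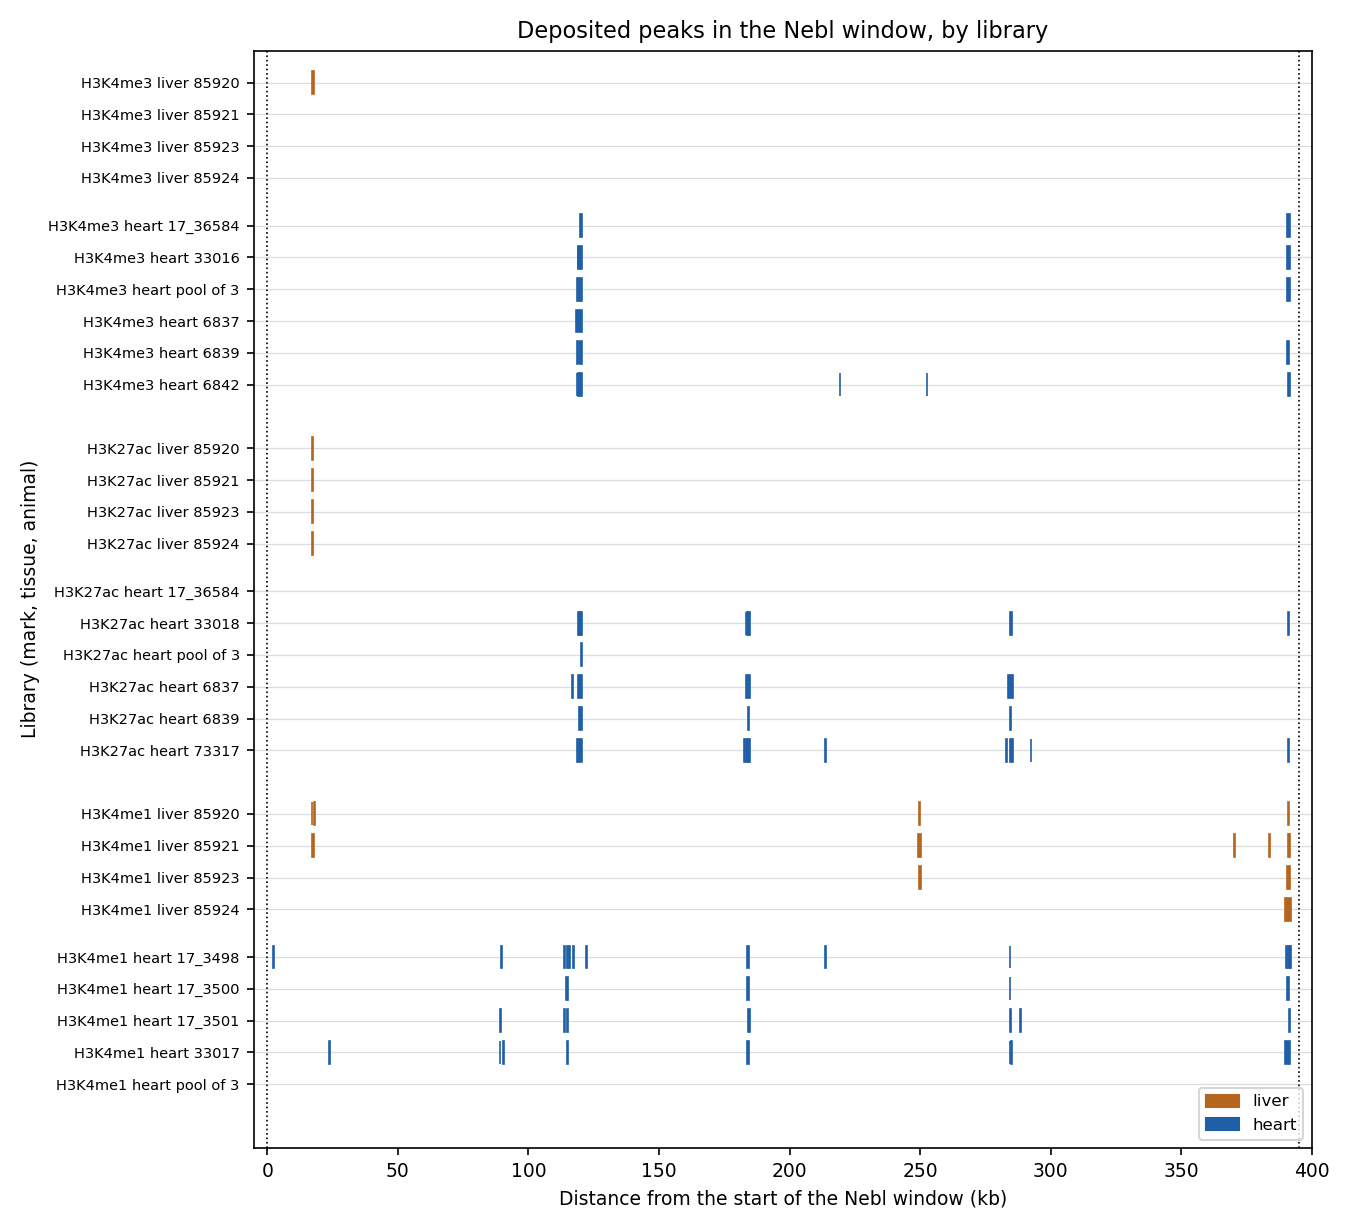
Deposited peaks in the Nebl window, 1 row per library (mark, tissue, animal), with distance from the window start in kb on the x axis and dotted lines at the window edges. Bars are peaks, brown for liver and blue for heart, and the outline makes the narrowest of them look slightly wider than to scale. Heart rows align near 119, 184, 284 and 391 kb, and the 4 liver H3K27ac rows near 17 kb.

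H3K4me3 at Nebl was found in all 6 heart lists and in 1 of 4 liver lists. Cover in heart was lowest in 17_36584 at 0.423%, had a median of 0.606% and was highest in 6842 at 0.736%. In liver it was 0.126% in 85920 and 0 in the other 3. All heart lists lay above all liver lists, with means of 0.589% ± 0.118 (SD, n = 6) and 0.0314% ± 0.0628 (SD, n = 4). The exact permutation p was 0.00476, and 0.154 after adjustment over 6194 tiles of 395 kb, so the difference of −0.557 points (liver minus heart) did not pass. The adjusted p was the lowest that any tile reached, and 0% of tiles passed with heart higher. Of the tiles, 748 (12.1%) had an unadjusted exact permutation p under 0.05, and 6.76% had heart above liver with no overlap. Without the library labelled heart 6837 the difference was −0.556 points, with an adjusted exact permutation p of 0.135, and 7.32% of tiles had heart above liver with no overlap.

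The number of H3K4me3 peaks at Nebl was 1 in heart 6837, 2 in 17_36584, 3 in 33016, 4 in the pool, 4 in 6839 and 6 in 6842. Liver 85920 had 1 and the other livers 0, so the groups met at 1 peak. Means were 3.33 ± 1.75 (SD, n = 6) and 0.25 ± 0.5 (SD, n = 4). The exact permutation p was 0.0190 and the adjusted p 0.330. No tile passed with heart higher (0%), and 724 tiles (11.7%) had an unadjusted exact permutation p under 0.05. Without the library labelled heart 6837 the numbers did not overlap, as in 7.82% of tiles with heart higher, and the adjusted exact permutation p was 0.263.

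The place near 119 kb, chr2:17458341-17460685, held H3K4me3 in 6 of 6 heart and 0 of 4 liver lists. It was the 1 of 5 H3K4me3 regions at Nebl found in every heart and no liver list, where 1.27% of regions over the genome were with all lists. The highest fold there was 30.1 in heart 6842, 26.8 in 6837, 15.5 in 33016, 9.34 in 6839, 6.33 in the pool and 6.25 in 17_36584. The lists broke it up differently, as 1 peak of 2345 bases in 6837 and 1 of 754 bases in 17_36584, but as 2 or 3 peaks in the other 4.

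The place near 391 kb, chr2:17730482-17731551, held H3K4me3 in 5 of 6 heart lists and no liver list. Its fold was 17.3 in heart 6842, 17.2 in the pool, 12.8 in 33016, 9.11 in 6839 and 8.35 in 17_36584, in a single peak of 724 to 1022 bases each time. The library labelled heart 6837 had no peak there, although its peak near 119 kb was the widest of the group. Without that library, 2 regions were found in every heart and no liver list, as were 1.76% of regions over the genome. The order of the places differed between lists, as 17_36584 and the pool had the higher fold near 391 kb and 33016, 6839 and 6842 near 119 kb. None of the heart H3K4me3 peaks at Nebl stood high in its list: the strongest exceeded 28.9% to 73.2% of the peaks in fold, and at most 71.0% in the lists other than 6837.

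H3K27ac at Nebl varied widely among the hearts. Peaks numbered 0 in 17_36584, 1 in the pool, 3 in 6839, 6 in 6837, 8 in 33018 and 10 in 73317, and covered from 0 to 1.39% of the window with a median of 0.714%. Each of the 4 livers had exactly 1 peak, covering 0.0795% in 85920, 0.0878% in 85921, 0.0980% in 85923 and 0.0916% in 85924. Of the hearts, 4 lay above all livers and 2, the pool at 0.0686% and 17_36584 at 0, below them. These 2 lists also had the least H3K27ac at the cardiomyocyte genes, 4812 and 7675 bases, against 19385 to 30319 in the other 4. At the endothelial genes they had 75625 and 58549 bases, against 52159 to 101513. Whether this bears on the Nebl values was not tested. Means were 0.680% ± 0.591 (SD, n = 6) in heart and 0.0892% ± 0.00772 (SD, n = 4) in liver. Neither the difference in cover (−0.591 points, exact permutation p = 0.105, adjusted p = 0.166) nor that in number (−3.67 peaks, exact permutation p = 0.129, adjusted p = 0.224) passed. Of the 5180 tiles, 19.2% passed with heart higher in cover and 11.5% in number, so Nebl was not among the many that did. With the window extended by 10 kb on each side the difference in cover was −0.357 points.

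Heart H3K27ac near 119 kb, chr2:17458643-17460690, was listed in 5 of 6 hearts and covered the same place as H3K4me3. Its highest fold was 16.0 in 33018, 10.7 in 6839, 10.2 in 6837, 8.80 in 73317 and 4.33 in the pool. The summits of these 5 peaks fell within 434 bases. In 6837, 33018, 6839 and 73317 the strongest H3K27ac peak of the window exceeded 79.4% to 85.8% of its list in fold, and in the pool 17.4%. In the hearts with both marks, H3K27ac covered 73.2% of the H3K4me3 bases of the window in 6837, 38.1% in 6839, 14.2% in the pool and 0 in 17_36584.

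The places near 184 kb (chr2:17524073-17524908) and 284 kb (chr2:17624323-17625453) had H3K27ac in the same 4 hearts, 33018, 6837, 6839 and 73317. The fold was 6.06 to 9.62 at the first and 5.18 to 5.84 at the second. The 4 summits at 184 kb lay within 139 bases and those at 284 kb within 780. No list of either tissue had H3K4me3 at these places, and 4 of 5 heart lists had H3K4me1 at both. No H3K27ac region at Nebl was found in every heart list and no liver list (0 of 13, where 3.74% of regions over the genome were), because 17_36584 had no peak in the window, and 1 was without that library, where 4.77% over the genome were.

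The liver H3K27ac peak at chr2:17356963-17357410, near 17 kb, was the 1 of 13 H3K27ac regions at Nebl found in every liver and no heart list, where 7.09% of regions over the genome were. It was 314 bases wide with a fold of 4.57 in 85920, 347 and 7.57 in 85921, 387 and 6.15 in 85923, and 362 and 6.92 in 85924. The 4 summits fell within 31 bases, and the fold exceeded 17.8% to 60.1% of the list. Liver 85920 also had its H3K4me3 peak here (496 bases, fold 5.03), and 85920 and 85921 had H3K4me1 peaks. No heart list had a peak of any mark at the place.

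H3K4me1 at Nebl did not separate the tissues. Cover was 0.445% in liver 85920, 0.875% in 85921, 0.470% in 85923 and 0.466% in 85924. In heart it was 1.51% in 17_3498, 0.547% in 17_3500, 0.697% in 17_3501, 1.24% in 33017 and 0 in the pool. The groups overlapped, at 0.564% ± 0.207 (SD, n = 4) and 0.800% ± 0.595 (SD, n = 5), and the difference of −0.236 points had an exact permutation p of 0.452 and an adjusted p of 0.671. Livers had 4, 6, 2 and 2 peaks and hearts 13, 4, 7, 8 and 0 in the same orders, with an exact permutation p of 0.357 and an adjusted p of 0.636. No tile of 5642 passed with heart higher in cover or number (0% and 0%). An unadjusted exact permutation p under 0.05 was reached by 1185 tiles (21.0%) in cover and 1239 (22.0%) in number. Without the pool the difference in cover was −0.436 points (adjusted exact permutation p = 0.355) and that in number −4.50 in place of −2.90 (adjusted exact permutation p = 0.255). Without heart 17_3498 they were −0.0575 points and −1.25 peaks, and without heart 33017 the difference in cover was −0.125 points. The difference in cover turned to 0.0553 points with peaks of a −log10 q of at least 4 only and to 0.193 points with the window extended by 10 kb on each side.

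Of 20 H3K4me1 regions at Nebl, 15 had peaks in heart lists only, 4 in liver lists only and 1 in both, though 12 rested on 1 library. Over the genome 40.5% of H3K4me1 regions had peaks in heart lists only, 30.8% in liver lists only and 28.7% in both. Regions at chr2:17454443-17455188 (near 115 kb), chr2:17523757-17524700 (184 kb) and chr2:17624246-17624643 (284 kb) had peaks in 4 of 5 heart and no liver list, all but the pool. Their folds were 4.21 to 8.52, 3.51 to 6.28 and 4.24 to 5.99. Because of the pool, 0 regions were found in every heart and no liver list, and 3 without it, where 0.419% of regions over the genome were with all lists and 3.33% without the pool. A liver region at chr2:17589308-17590283, near 249 kb, had peaks in 3 of 4 livers and no heart, and their fold averaged 5.62 ± 0.476 (SD, n = 3).

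The region shared by both tissues, chr2:17729834-17732048, had H3K4me1 in 4 of 4 livers and 4 of 5 hearts and spanned the heart H3K4me3 place near 391 kb. Its highest fold was 3.72 in liver 85920, 4.17 in 85921, 6.19 in 85923 and 11.3 in 85924. In heart it was 5.45 in 17_3498, 4.09 in 17_3500, 4.19 in 17_3501 and 6.99 in 33017. The tissues overlapped in these values. At this place heart lists thus held all 3 marks (H3K27ac in 2 of 6), but each in different hearts, whereas liver lists held H3K4me1 alone. The H3K27ac and H3K4me1 peaks here came from hearts with a list for 1 mark only. Hearts 17_36584, 6839 and the pool had H3K4me3 here but no H3K27ac peak in their H3K27ac lists. Near 119 kb heart lists held H3K4me3 and H3K27ac with no H3K4me1 peak overlapping them. The H3K4me1 lists, apart from the pool's, were of other hearts. The nearest recurrent H3K4me1 peaks lay near 115 kb.

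**Figure D3:**
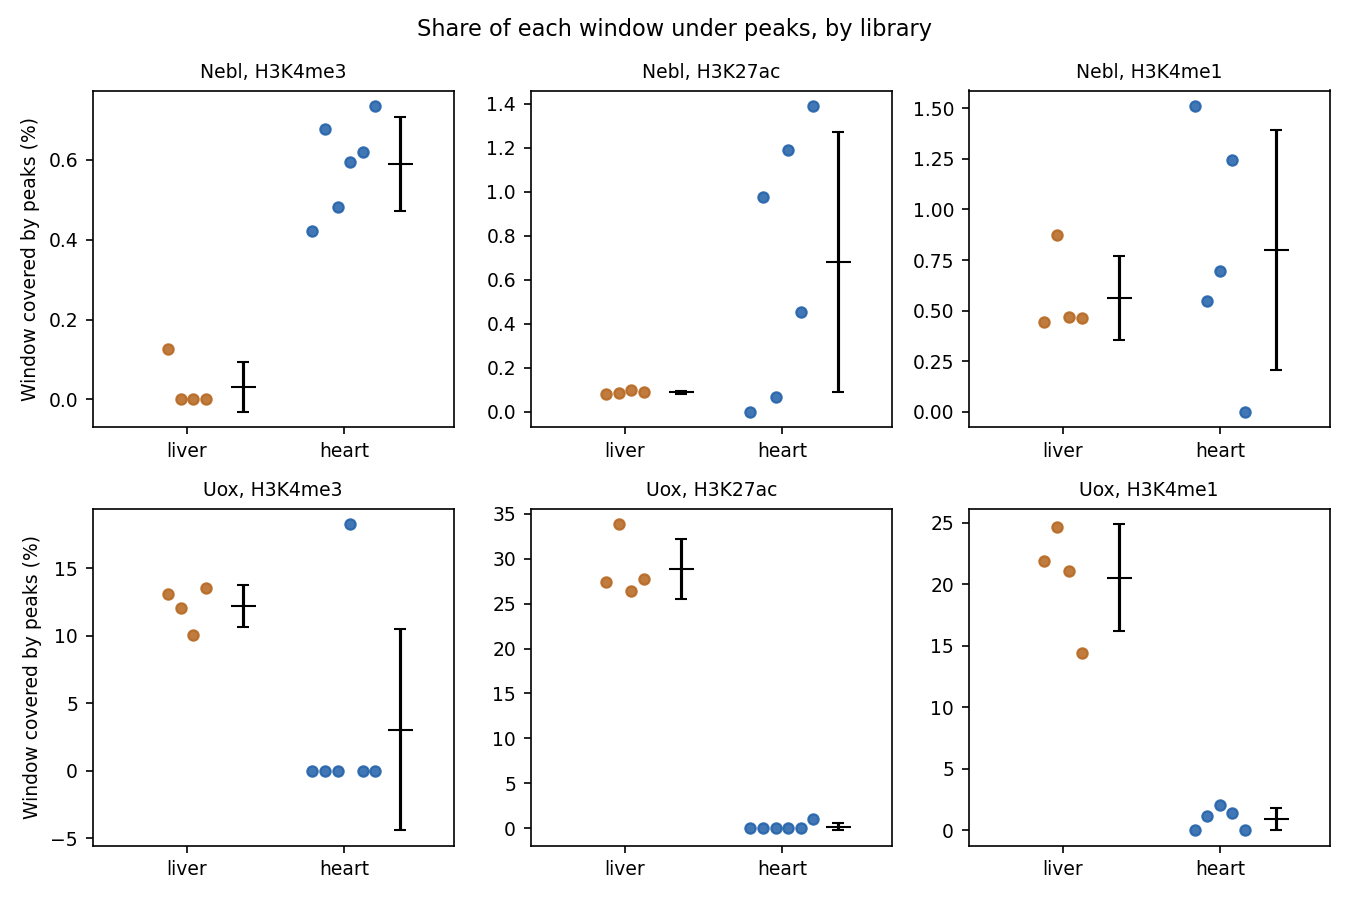
Share of the Uox and Nebl windows under peaks, in percent, for each mark and tissue, with a scale of its own in each panel. Points are libraries, and the black dash and bar beside them are the mean and SD over libraries. Liver points lie above all heart points for H3K27ac and H3K4me1 at Uox, 1 heart point (6837) lies above the liver points for H3K4me3 at Uox, and heart points lie above all liver points for H3K4me3 at Nebl.

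The plot of cover by library shows the contrast in scale. Liver had 10.1% to 33.8% of the Uox window under each mark, and heart had at most 1.51% of the Nebl window under any. The windows differ in length by construction, so the widths compare more directly: the widest peak at Uox in liver was 13683 bases for H3K27ac, 6483 for H3K4me3 and 2263 for H3K4me1, and the widest at Nebl in heart was 1721, 2345 and 1857. For H3K4me1 the widest peaks overlapped in width, as liver 85924 had none at Uox over 597 bases. Among all 395 kb tiles with a peak, the heart mean at Nebl exceeded 50.7% for H3K4me3, 36.5% for H3K27ac and 44.3% for H3K4me1. Among 50 kb tiles, the liver mean at Uox exceeded 98.4%, 97.2% and 95.4%. Without the library labelled heart 6837 the Nebl value for H3K4me3 was 52.4%.

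**Figure D4:**
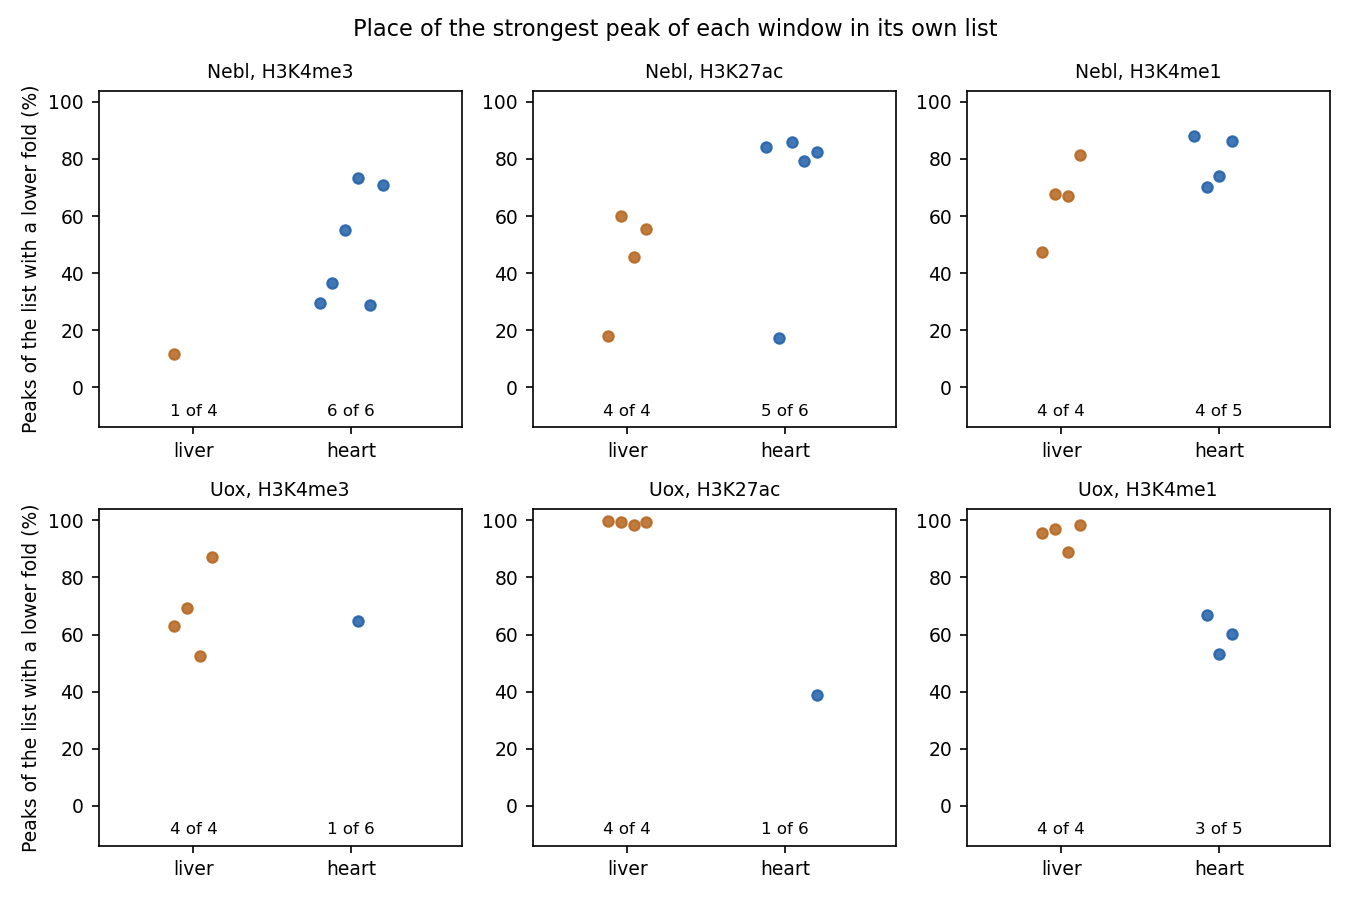
Place of the strongest peak of each window within its own list, as the percent of peaks in the list with a lower fold, for each mark and tissue. Points are libraries with at least 1 peak in the window, whose number is printed under each group. The 4 liver H3K27ac points at Uox lie at 98.3% or above, and the heart H3K4me3 points at Nebl spread from 28.9% to 73.2%.

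Ranks within a list do not depend on the scale of fold in a library, but they can vary with the length of the list. For H3K27ac the ranks at Uox in liver lay above those at Nebl in heart. For H3K4me3 they overlapped, at 52.5% to 87.3% against 28.9% to 73.2%. The heart lists within this H3K4me3 overlap were the longer ones, of 29226 to 32785 peaks, with 55.2% to 73.2% at Nebl. They were the pool, 6837 and 6842, whose highest folds at Nebl were 17.2, 26.8 and 30.1. Heart lists of 18135 to 19954 peaks, near the liver lists in length (17431 to 19301), had 28.9% to 36.5%. Their highest folds at Nebl were 8.35 to 15.5. Whether list length, fold or library bears on these ranks was not tested. At Uox the strongest liver peak exceeded 98.3% to 99.8% of the list for H3K27ac and 89.0% to 98.4% for H3K4me1. At Nebl the strongest heart peak reached 85.8% for H3K27ac at most and 70.3% to 88.0% for H3K4me1. The 3 hearts with H3K4me1 at Uox had their strongest peak above 53.1% to 66.9% of the list. These ranks were not tested between libraries.

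**Figure D5:**
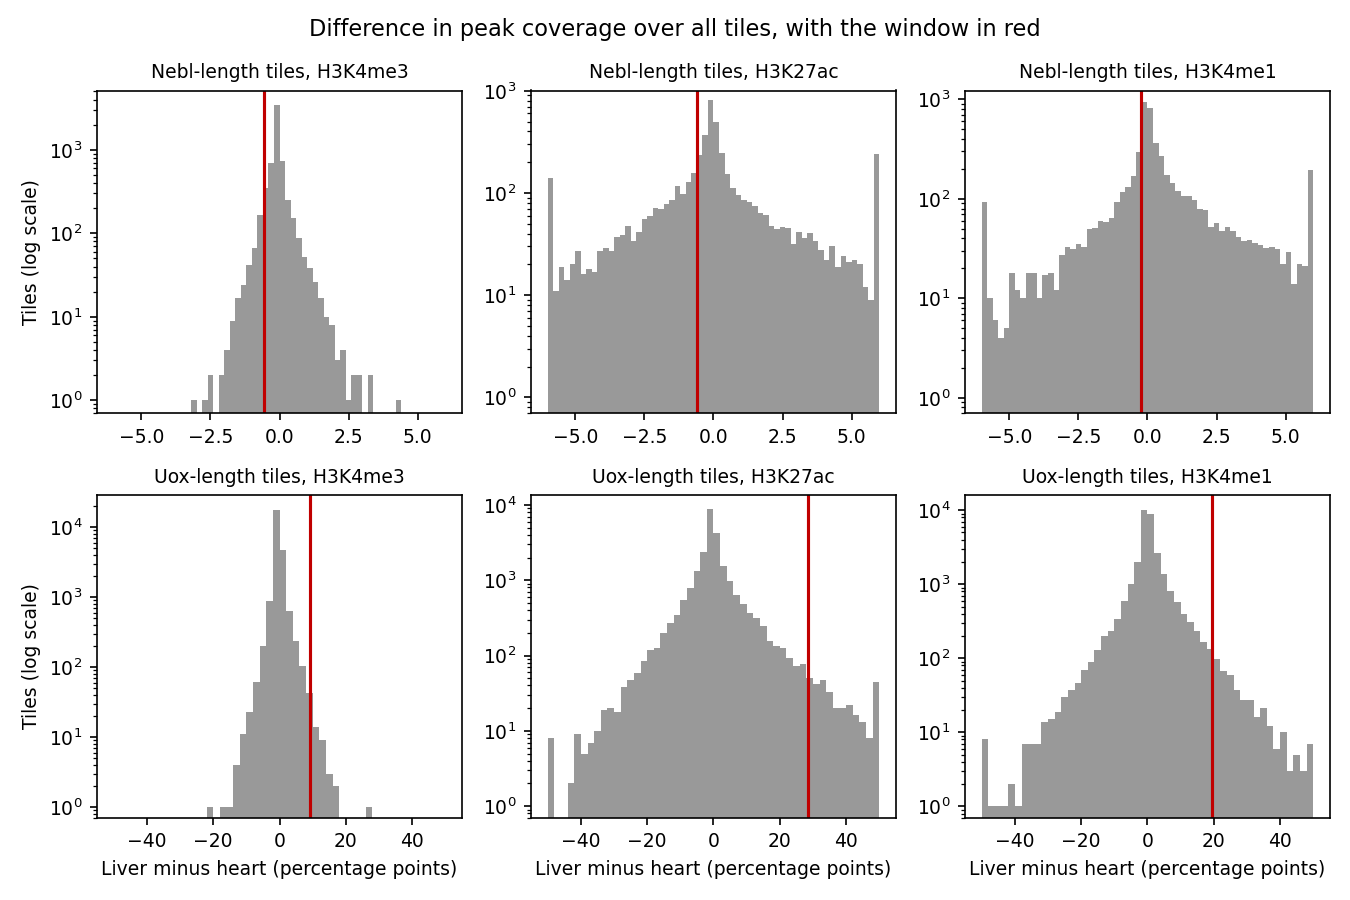
Liver minus heart in the percent of a tile under peaks, for all genome tiles of the Nebl length (top) and the Uox length (bottom) with a peak of the mark, with the number of tiles on a log scale and the outermost bars holding all tiles beyond them. The red line marks the window itself. The Uox line lies in the right tail of all 3 marks (H3K4me3 9.14, H3K27ac 28.7 and H3K4me1 19.6 points), and the Nebl line lies left of the median tile (−0.557, −0.591 and −0.236), with 6.34%, 29% and 25.4% of tiles further left.

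Against all tiles, the H3K4me3 difference at Uox exceeded 99.8% of tiles with and without the library labelled heart 6837 in the heart group. At Nebl 6.34% of tiles had a difference further toward heart for H3K4me3 (4.88% without that library), 29% for H3K27ac and 25.4% for H3K4me1. The median tile differed by −0.0354, −0.0416 and 0.0697 points at the Nebl length in the same order of marks, and by −0.0720, −0.250 and 0.0688 points at the Uox length.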

How the data were processed

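Peak lists of 29 mouse libraries were analysed as deposited, 1 per animal and mark (the pool counting as 1), grouped by tissue and mark from the labels. Peaks were called with MACS2 per the submitters' processing notes, which give no version, on GRCm38 per the peak names, and each library against a named input. Liver libraries used the input of the same animal. Among heart libraries only those of the pool and of 17_3498 did so. The others used the input of another heart animal, and several shared one. An aligner is not given in the sources used here. Deposited folds are the authors' ratio over background per peak, the deposited −log10 of the p-value and of the q-value are the authors' too, and the deposited score is the −log10 q scaled to a whole number. One heart H3K4me1 list (33017) carries a 40M tag that the labels do not explain. Read depth is unknown.

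Per library, the bases of each window under peaks and the number of overlapping peaks were computed with Python 3.11.15, NumPy 2.4.6 and pandas 2.3.3. Liver and heart were compared by a two-sided exact permutation test of the difference of means, checked against SciPy 1.17.1 and tested on simulated data. P-values were adjusted by Benjamini-Hochberg over all tiles of the window's length with a peak in any library, with a threshold of 0.05. The unadjusted p is the share of relabellings of these libraries by tissue with a mean difference at least as large. It refers to these libraries only. Folds were not tested. Percentages of tiles are given beside counts of tiles, and shares of regions over the genome where they were available.

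The genes, windows and tests were chosen with earlier results of these data known. Regions were named by rule: the highest mean fold per window, mark and tissue, those found in every list of 1 tissue and no list of the other, and those in every list; further regions were named after their values were seen. Marker genes were placed from general knowledge of GRCm38, as no mouse annotation was supplied, and Cd68 and Dcn of the marker list were not used. For the same reason the planned lists of purine breakdown and Z-disc genes, and of genes most like the pair, were not analysed here. Alternatives were a stricter q, equal numbers of peaks, scaling by library, wider windows, peaks wholly inside, joined peaks, and each library left out. A further alternative kept only libraries whose names begin with do.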

Additional observations from a re-analysis of the deposited data

Results flagged for a closer look

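In 8 of 31 groups of values tested, 1 library stood apart from the rest of its group by Dixon's test, which chance does in about 1 in 20 groups of continuous values. In 6 of the 8 every other library was at 0, where the gap equals the range by construction, and these 6 are the cover and the number of the same peaks in 3 groups. The 8 are therefore not read against that share. Liver 85920 had the sole H3K4me3 peak of its group at Nebl, with a cover of 0.126% and 1 peak against 0 in the other 3 livers. Liver 85921 had 0.875% of the Nebl window under H3K4me1 against 0.445% to 0.470% in the others.

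The library labelled heart 6837 had 18.3% of the Uox window under H3K4me3, in 3 peaks, against 0 in the other 5 hearts. Heart 73317 had 0.994% of the Uox window under H3K27ac, in 2 peaks, against 0 in the other 5, and its list was the longest of that mark. Liver 85924 had a highest H3K4me1 fold of 22.6 at Uox against 8.39 to 9.95 in the others. What sets these libraries apart was not tested.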

How the results depend on the processing

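Of 320 values recomputed or reported over 24 results, 305 kept their direction and side of the threshold. The difference in H3K4me1 cover at Nebl reversed to 0.0553 points with peaks of a −log10 q of at least 4 and to 0.193 points with the window extended by 10 kb. The H3K4me1 difference in cover at Uox passed when scaled by library (18.1 points, adjusted exact permutation p = 0.0477). Beside the moves given with the results, these differences moved by over 1.5 times without a change of call. Joining peaks less than 1 kb apart gave a number of −1.92 for H3K4me3 and −2.17 for H3K27ac at Nebl and of 0.667 for H3K4me3 at Uox. Lists of equal numbers of peaks gave −2.17 for H3K27ac and −0.400 for H3K4me1 at Nebl (H3K4me1 cover −0.113 points), a −log10 q of at least 4 gave −2.33 and −0.650, and the extended window −2.25 and −0.500. With only the libraries whose names begin with do, H3K4me1 at Nebl differed by −0.0569 points and −0.500 peaks. The H3K27ac difference in the number of peaks at Uox was 6.00 to 8.33 with 1 library left out, and did not pass without any 1 of the livers.

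Leaving out libraries, an alternative chosen for regions after seeing the data, moved the number found in every list of 1 tissue only: 1 to 2 for heart H3K4me3 at Nebl, 0 to 1 for liver H3K4me3 at Uox, 0 to 1 for heart H3K27ac at Nebl, 1 to 3 for liver H3K27ac at Uox, 0 to 1 for liver and 0 to 3 for heart H3K4me1 at Nebl, and 5 to 7 for liver H3K4me1 at Uox. Liver H3K27ac at Uox had 1 such region with a −log10 q of at least 4 and 1 with an overlap of at least 50% of the shorter region. The share of regions over the genome under the rule rose too. Without heart 6837 it went from 1.27% to 1.76% for heart and from 0.334% to 2.63% for liver H3K4me3. It went from 3.74% to 4.77% for heart H3K27ac without 17_36584 and from 0.419% to 3.33% for heart H3K4me1 without the pool. No such share is given for the other moves, so they are not read as a result about the windows. All H3K4me3 and H3K27ac libraries have names that begin with do, so the alternative of do libraries only applied to H3K4me1 alone. The labels name no batch. Liver libraries are numbered do3128 to do3169, and heart libraries do4245 to do17728 or with the prefix vl. A batch linked to these numbers could therefore not be told apart from tissue. No paired analysis was possible because liver and heart came from different animals. With read depth unknown, a missing peak does not show a missing mark.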
